A study of Mus musculus with 4 samples.

Results

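The genes that give spinal motor neurons their transmitter, acetylcholine, were described here: Chat, Slc18a3, Slc5a7, Ache and Bche. They were chosen by symbol as 5 of the 27189 genes in the deposited expression tables, and each had a single entry. Expression was measured by RNA-seq of poly(A) RNA in 4 libraries, each from laser-captured motor neuron cell bodies of 1 mouse at 3 months of age, 3000 to 4000 cell bodies per animal. The genotypes compared were on the C57BL/6J x SJL/J background, and no non-transgenic animals were among the samples. The 2 wild-type libraries came from strain 592, which carries human wild-type SOD1 fused at its end to YFP, and the 2 G85R libraries from strain 737, which carries the same construct with the G85R mutation that causes familial amyotrophic lateral sclerosis. Both transgenes were cut from a human genomic SOD1 fragment and were not restricted to motor neurons by a promoter. Strain 737 carries many more copies than strain 592, so mutation, copy number and transgenic line cannot be told apart. Large ventral horn cells stained with Azure B were captured, and cells of G85R mice with bright YFP aggregates were left out.

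Acetylcholine is made from choline and acetyl-CoA by choline acetyltransferase, the product of Chat, and is loaded into synaptic vesicles by the vesicular acetylcholine transporter, the product of Slc18a3. After release at the neuromuscular junction it is split by acetylcholinesterase, the product of Ache, and the choline is taken back up by the high-affinity choline transporter, the product of Slc5a7. Butyrylcholinesterase, the product of Bche, also splits acetylcholine but is known mainly from plasma, liver and glia. In motor neurons such proteins are made in the cell body and shipped to the terminal. The RNA measured here is that of the cell bodies.

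Slc18a3 lies inside Chat, an arrangement called the cholinergic gene locus. In the NCBIM37 annotation (the assembly also named mm9), Chat spans chr14:33221389-33279095 on the minus strand with 2 annotated transcripts, and the long noncoding gene Gm2990 overlaps it on the plus strand. Slc18a3 has no entry under that symbol in this annotation. Its RefSeq promoter, placed on the genome by its sequence, lies at chr14:33277987-33278286 on the minus strand, and its start site at base 33278036 falls in intron 1 of both Chat transcripts, 957 bases past the end of the Chat exon 1. RefSeq places Slc18a3, which is 2414 bases long, wholly within the 57707 bases of Chat (GRCm38.p6). Slc5a7 lies at chr17:54412919-54438359 on the minus strand, Ache at chr5:137728747-137735694 on the plus strand and Bche at chr3:73439730-73512337 on the minus strand.

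The 2 start sites of the locus each lie near a TGACG motif, the core of the element bound by cyclic AMP response factors, here read on the opposite strand as CGTCA. These are the windows that Chat and Slc18a3 have in common among the 4 motifs searched, with the motif in capitals, from RefSeq promoters (GRCm38.p6) placed on NCBIM37 by their sequence.
Chat promoter, chr14:33279252-33279276, minus strand: ccaatctcaaCGTCAccaccacctc
Slc18a3 promoter, chr14:33278071-33278095, minus strand: agactcaccgCGTCAtagccccaag
The motif lies at bases -171 to -167 from the Chat start site and at -49 to -45 from the Slc18a3 start site. Of all 32851 mouse RefSeq promoters (250 bases before to 50 after the start), 20.8% hold TGACG on either strand, so sharing it is common. CACGTG, the E-box palindrome, was found in the promoters of Chat and Ache and in 7.15% of all promoters. GGGCGG, the GC box, was found 2 times in the promoter of Slc18a3, 4 times in that of Ache and 2 times in that of Bche (some copies within each of the last pair overlap), and in 35.7% of all promoters. TATAAA was found in the Slc5a7 promoter alone among the 5, and in 13.6% of all promoters. These matches describe letters in a window and say nothing about binding in these cells.

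Ache and Bche encode related serine esterases, and the codon of the active-site serine, AGT in both, is shown in capitals within the stretch that the genes share.
Ache, chr5:137731949-137731975, plus strand, exon 2 of 5: ctgtttggggagAGTgcgggtgcagcc
Bche, chr3:73505321-73505347, minus strand, exon 2 of 4: atttttggagaaAGTgcaggggcagct
The codon begins at base 700 of the 1845-base Ache coding sequence and at base 679 of the 1812-base Bche coding sequence. Of the 27 bases shown, 20 are identical. The longest run of identical bases between any annotated coding transcript of Ache and any of Bche was 17.

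Levels are given in RPKM (reads divided by transcript length and by the mapped reads of the library). Comparisons between genes depend on the lengths used, which the sources used here do not give. Slc18a3 and Ache had the highest levels of the 5 genes, then Slc5a7, then Chat, and Bche was near the floor. This order of levels held within each of the 4 libraries. The gap between Slc18a3 and Ache was small, with Slc18a3 at 1.03 to 1.33 times Ache within a library, which is smaller than the gap between replicates of Slc18a3. Slc5a7 stood below Ache, which was 1.49 to 1.90 times Slc5a7, and Slc18a3 was 5.10 to 6.61 times Chat. Ranked among all 27189 genes of a library, Slc18a3 stood at places 88 to 164, Ache at 129 to 171, Slc5a7 at 278 to 406, Chat at 964 to 1624 and Bche at 13519 to 14209.

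**Figure D1:**
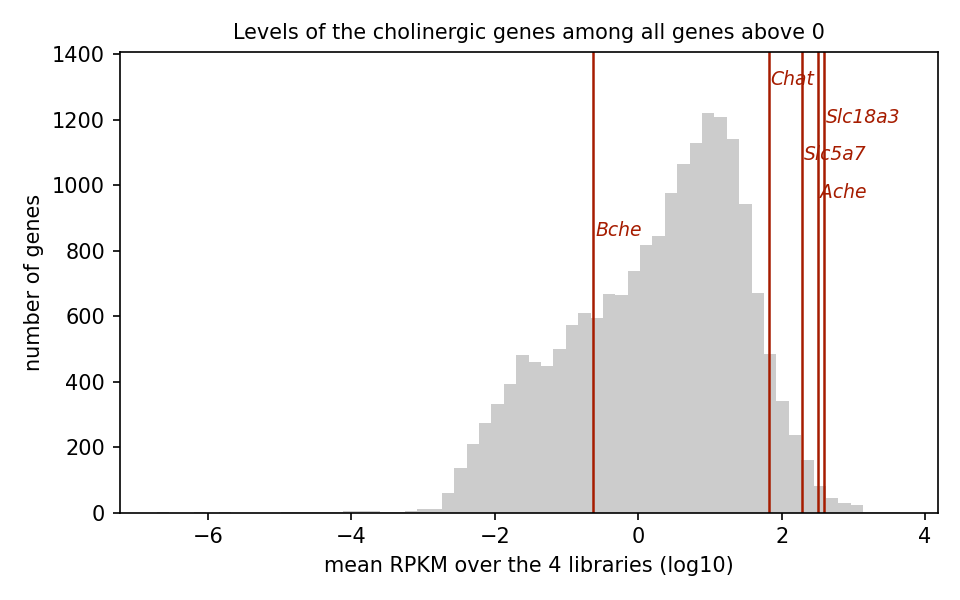
Distribution of the mean RPKM over the 4 libraries (log10 axis) of the 18619 genes with a mean above 0, with red lines at the means of the 5 cholinergic genes. Slc18a3 (389 RPKM), Ache (325), Slc5a7 (190.4) and Chat (65.7) lie in the upper tail, and Bche (0.235) lies to the left of the peak.

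Chat, the synthetic enzyme, was listed at 66.3 and 81.2 RPKM in wild-type replicates 1 and 2 and at 49.6 and 65.5 RPKM in G85R replicates 1 and 2. Both G85R libraries lay below both wild-type libraries, though the nearest pair, 65.5 and 66.3 RPKM, almost touched. The wild-type mean was 73.8 ± 10.5 RPKM (SD, n = 2) and the G85R mean 57.5 ± 11.3 RPKM (SD, n = 2). On the log2(RPKM + 0.1) scale the difference of G85R from wild-type was -0.36 with a standard error of 0.16 and a 95% interval of -0.75 to 0.02, or 1.29-fold lower. It did not pass the test (limma, Benjamini-Hochberg adjusted p = 0.482 over the 11530 genes whose mean reached 1 RPKM). Of the 4 cholinergic genes tested, limma called 0 at an adjusted p under 0.05, and 0 had an unadjusted p under 0.05. The background over all genes tested was 0.642% called (0.373% lower and 0.269% higher in G85R) and 11.0% with an unadjusted p under 0.05. A log-linear model, which the study names for its own calls and which was computed here with Poisson errors on the RPKM, also called 0 of the 5 genes, and 0.228% of all 27189 genes. Chat was the 1 of the 4 whose genotypes did not overlap, which 41.2% of genes tested also showed, 23.9% with both G85R libraries below. Leaving out G85R replicate 1 brought the difference to -0.16 (adjusted p = 0.966), and leaving out G85R replicate 2 to -0.57 (adjusted p = 0.184), both with limma.

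The reads behind Chat were fewer than for its partners. Dividing its RPKM by the value of 1 read gave about 998 to 1902 reads a library, against 19898 to 35793 for Slc18a3. The value of 1 Chat read corresponds to a length 0.312 times that of Slc18a3, or about 754 bases if Slc18a3 is taken at 2414 bases. The annotated Chat transcripts are longer, at 2810 and 2253 bases. Beyond this inference, the length that entered the deposited Chat RPKM is not given in the sources used here. Nor is it given whether reads were counted over all or part of the transcript. The same reads divided by a longer length would lower Chat relative to other genes. With the same reads and Slc18a3 taken at its 2414 bases, Chat would stand at 0.335 times its listed level for the transcript of 2253 bases. For that of 2810 bases it would stand at 0.268 times. If reads were counted over part of the transcript alone, these factors would not apply. The comparison of Chat between libraries uses the same length in each.

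**Figure D2:**
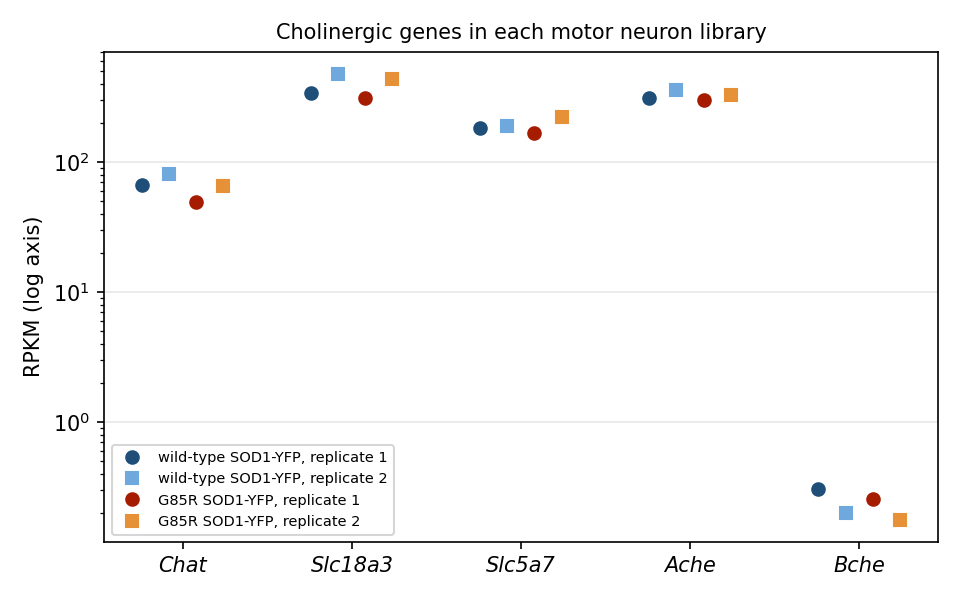
RPKM of each cholinergic gene (log axis) in the 4 libraries, 1 point per library, wild-type in blue and G85R in red and orange, circles for replicate 1 and squares for replicate 2. In Chat alone both G85R points (49.6 and 65.5 RPKM) lie below both wild-type points (66.3 and 81.2 RPKM).

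Slc18a3, the vesicular transporter, was listed at 339 and 477 RPKM in the wild-type libraries and at 309 and 433 RPKM in the G85R libraries. The genotypes overlapped, and replicate 2 stood above replicate 1 in each. The difference of G85R from wild-type was -0.14 on the log2 scale with a standard error of 0.21 and a 95% interval of -0.62 to 0.35 (limma, adjusted p = 0.894). The gap between replicates was 1.41-fold in wild-type and 1.40-fold in G85R, and 6.78% and 7.21% of genes tested had a larger gap. Slc18a3 therefore varied more between replicates of a genotype than most genes did.

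Slc5a7, which returns choline to the terminal, was listed at 184 and 189 RPKM in the wild-type libraries and at 167 and 221 RPKM in the G85R libraries. The G85R libraries lay on either side of the wild-type pair. The difference was 0.04 on the log2 scale with a standard error of 0.14 and a 95% interval of -0.29 to 0.38 (limma, adjusted p = 0.959). The replicates differed 1.03-fold in wild-type and 1.33-fold in G85R.

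Ache, the enzyme that ends the signal, was listed at 309 and 359 RPKM in the wild-type libraries and at 300.3 and 330.2 RPKM in the G85R libraries. The genotypes overlapped. The difference was -0.08 on the log2 scale with a standard error of 0.11 and a 95% interval of -0.35 to 0.18 (limma, adjusted p = 0.88), the narrowest interval of the 4 genes tested.

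Bche was listed at 0.305 and 0.201 RPKM in the wild-type libraries and at 0.257 and 0.178 RPKM in the G85R libraries. These values overlapped and rest on about 34.1, 23.8, 26.2 and 19.3 reads. With a mean of 0.235 RPKM it was under the minimum for the test, and its difference of -0.15 on the log2(RPKM + 0.1) scale has no p-value. Within a library Ache was 1012 to 1853 times Bche, so of the related pair shown above these cells carried almost solely Ache RNA.

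The 4 genes tested shared a direction between replicates that crossed genotype. Chat, Slc18a3, Slc5a7 and Ache were each higher in replicate 2 than in replicate 1 in both genotypes, as were 28.0% of genes tested, and Bche was lower in replicate 2 in both. The replicate gap of Chat was 1.22-fold in wild-type and 1.32-fold in G85R, close in size to its genotype difference. What replicate numbers stand for, beyond separate animals, is not given in the labels.

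Ratios within a library do not depend on how the library was scaled. Slc18a3 was 5.10 and 5.88 times Chat in the wild-type libraries and 6.23 and 6.61 times Chat in the G85R libraries. Slc5a7 was 2.78 and 2.33 times Chat in wild-type and 3.37 times Chat in both G85R libraries. Ache was 4.66 and 4.42 times Chat in wild-type and 6.06 and 5.04 times Chat in G85R. All 3 ratios were higher in both G85R libraries than in both wild-type libraries, as were the ratios to Chat of 43.8% of all other genes tested. They were higher by 0.23 for Slc18a3, 0.41 for Slc5a7 and 0.28 for Ache on the log2 scale. Each reached p = 0.333 in a two-sided exact permutation test (0.444 after Benjamini-Hochberg adjustment over 4 ratios), which is the smallest p that 2 libraries against 2 allow. The 3 ratios have the same Chat values below the line and are not independent of each other or of the Chat difference. The ratio of Bche to Chat overlapped between genotypes (exact permutation p = 0.667).

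**Figure D3:**
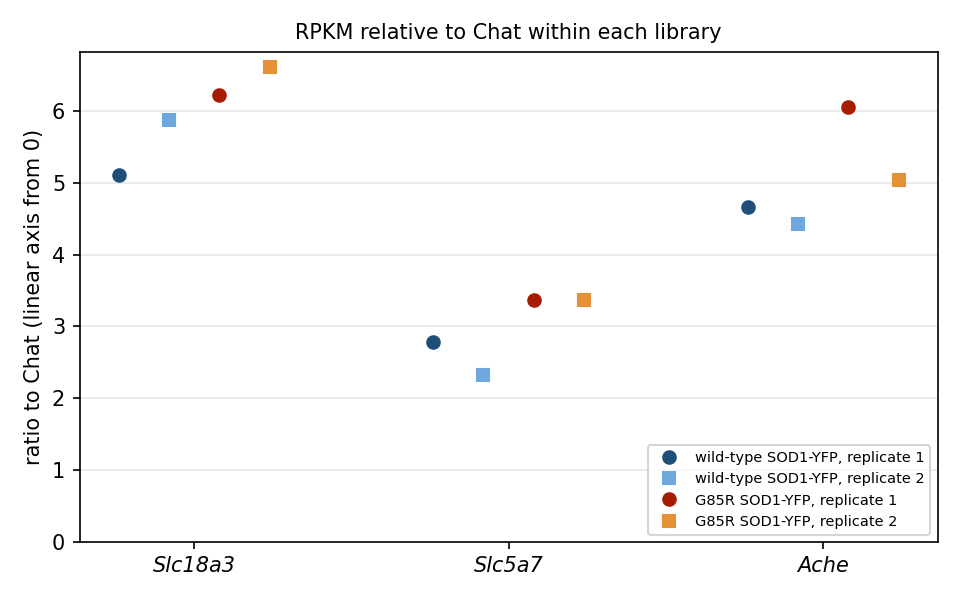
RPKM of Slc18a3, Slc5a7 and Ache divided by that of Chat within each library (linear axis from 0), 1 point per library, wild-type in blue and G85R in red and orange. Each gene's 2 G85R ratios lie above its 2 wild-type ratios, for Slc18a3 6.23 and 6.61 against 5.10 and 5.88.

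Markers of motor neurons were set beside the label of the cells. All 10 markers had a mean of at least 1 RPKM, a level that 11530 of all 27189 genes reached. The highest were the neurofilament genes Nefl (3905 to 5044 RPKM), Nefm (2780 to 3065 RPKM) and Nefh (1002 to 1106 RPKM), the structural proteins of large axons. The log2 mean of all 10 was lower in G85R, as was that of 6312 of the 11530 genes tested. Their median difference was -0.25 against -0.02 over all genes tested. None passed the test (limma, smallest adjusted p = 0.171), and 3 had an unadjusted p under 0.05, where 6.37% of genes tested did in that direction. In 5 of the 10 both G85R libraries lay below both wild-type libraries, as in 23.9% of all genes tested. The log-linear model has Poisson errors, which take no account of the spread between replicates. It called 0.228% of all genes and 3 of the 10 markers, all 3 lower in G85R. These were Nefl (adjusted p = 0.00362 in the log-linear model across all genes, difference -0.10 on the log2 scale) and, named after their values were seen, the intermediate filament gene Prph (-0.26) and the neuropeptide gene Calca (-0.72). In a bulk sample, fewer captured cells of a type and less RNA per cell cannot be told apart. Chat was also set against each marker within a library, a comparison chosen after these values were seen. The ratio of Chat to the marker overlapped between genotypes for 7 of 10. It was lower in both G85R libraries for Nefh and Nefl and higher in both for Lhx4. Over all other genes tested, Chat stood lower against 43.8% in both G85R libraries than in both wild-type libraries. For Mnx1, a motor neuron transcription factor, Chat was 3.73 and 4.44 times the marker in wild-type and 3.28 and 3.89 times in G85R.

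RNA of neighbouring cells was present, and its markers did not all differ from wild-type in the same direction. Of 8 astrocyte markers, all tested, 6 stood higher in G85R by their log2 mean, as did 5218 of all 11530 genes tested. Of the 6, Gfap and S100b had an unadjusted p under 0.05 (limma), as did 537 of all genes tested in that direction. The summed level of the 8 was 601 and 565 RPKM in wild-type and 755 and 634 RPKM in G85R. Without S100b, which motor neurons also express, the sums overlapped, at 189 and 150 RPKM in wild-type and 257 and 151 RPKM in G85R. Glul made up most of each of these sums, at 155 and 113 RPKM in wild-type and 134 and 102 RPKM in G85R. Unlike 6 of the 8 markers, Glul was lower in G85R by its log2 mean (-0.18). The leading astrocyte markers were S100b (412 to 498 RPKM), Glul (102 to 155 RPKM) and Gfap. Gfap, the intermediate filament of reactive astrocytes, was listed at 11.5 and 17.1 RPKM in wild-type and at 91.9 and 28.4 RPKM in G85R, so that G85R replicate 1, the library with the lowest Chat, had the highest Gfap. Limma called 0 of the 8 (0.642% of genes tested), and the log-linear model called Gfap alone (0.228% of all genes). All 6 microglia markers tested likewise stood higher in G85R by their log2 mean, led by C1qb (4.35 to 8.82 RPKM), C1qa (3.24 to 11.04 RPKM) and Tyrobp (1.39 to 5.29 RPKM). Limma called 0 of the 6 (smallest adjusted p = 0.405). C1qa and Tyrobp had an unadjusted p under 0.05 (limma), as did 537 of all 11530 genes tested in that direction. The sum over 8 was 14.3 and 14.1 RPKM in wild-type and 33.3 and 15.4 RPKM in G85R, so replicate 2 of G85R stood near wild-type. The 8 oligodendrocyte markers, among them Mbp (302 to 412 RPKM) and Mobp (80.5 to 114 RPKM), summed to 903 and 840 RPKM in wild-type and 1076 and 818 RPKM in G85R, 4 of them higher and 4 lower. The 6 endothelial markers were led by Cldn5 (4.24 to 6.81 RPKM), Flt1 (0.987 to 1.49 RPKM) and Pecam1 (0.530 to 0.907 RPKM). They summed to 8.87 and 9.96 RPKM in wild-type and to 7.88 and 7.49 RPKM in G85R, lower in both G85R libraries. Cldn5 made up most of each sum. Of the 2 tested, Cldn5 was lower in G85R (-0.41 on the log2 scale) and Flt1 higher (0.18). No marker of these 4 cell types was at 0 in every library. Hbb-b1, a hemoglobin of red blood cells, was higher in G85R (1.75 and 2.00 RPKM against 10.7 and 10.2 RPKM, limma adjusted p = 0.00173). The part of these cells in the Chat values was not tested.

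The genes of other transmitters were set beside the cholinergic ones. Slc32a1, the vesicular transporter of GABA and glycine, was listed at 81.8 and 90.7 RPKM in wild-type and 93.6 and 89.4 RPKM in G85R. Chat lay below Slc32a1 in all 4 libraries, at 0.530 to 0.896 times its level. Slc6a5, the glycine transporter of glycinergic terminals, was listed at 52.3 to 61.1 RPKM, and Slc17a6, the vesicular glutamate transporter VGLUT2, at 35.2 to 50.3 RPKM. Chat was 0.811 to 1.44 times Slc6a5 and 0.985 to 2.31 times Slc17a6, below both in G85R replicate 1. If the same reads were divided by either annotated Chat transcript length, Chat would lie below all 3 genes in every library. It would stand at 0.142 to 0.771 times their level, with these 3 genes kept at their listed values. If Chat reads were counted over part of the transcript alone, this range would not apply. The cholinergic transporters stood clear of them, since Slc18a3 was 3.30 to 5.26 times and Slc5a7 1.78 to 2.48 times Slc32a1 within a library. Slc18a3 was 111 to 184 times Slc18a2, the vesicular transporter of monoamines, and Dbh, which makes noradrenaline, was listed at 0 in all 4 libraries. Of 9 genes of other transmitters tested, 8 were higher in G85R by their log2 mean (median difference 0.12), as were 5218 of all 11530 genes tested. None passed the test (limma, smallest adjusted p = 0.488). An unadjusted p under 0.05 was reached by 0 of the 9, against 11.0% of all genes tested.

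**Figure D4:**
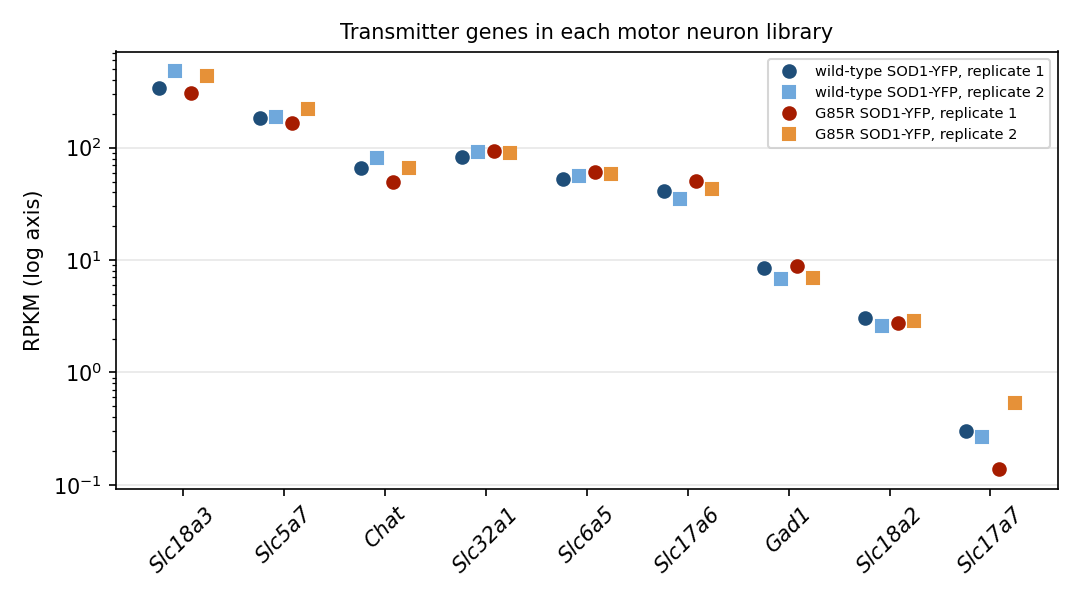
RPKM (log axis) of cholinergic transmitter genes and of genes of GABA, glycine, glutamate and monoamine transmission, 1 point per library, wild-type in blue and G85R in red and orange. Slc18a3 and Slc5a7 lie above every other gene drawn in all 4 libraries, and Chat lies below Slc32a1 (81.8 to 93.6 RPKM) in each.

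Around these members, 61 further genes of the cholinergic pathway were listed, of which 60 were found in the files and 38 had a mean of at least 1 RPKM. With limma 0 of the 38 were called, against 0.642% of all genes tested. An unadjusted p under 0.05 was reached by 3 of the 38 (1 higher and 2 lower in G85R), and by 11.0% of all genes tested. The log-linear model called 0 as well, and 0.228% of all genes. Their median difference was -0.01 on the log2 scale, beside -0.02 over all genes. Of the 38, both G85R libraries lay above both wild-type libraries in 12 and below in 5, where 17.3% and 23.9% of all genes tested did.

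Choline supply and acetyl-CoA supply were represented by 24 genes, 19 of them tested, with a median difference of -0.0042 on the log2 scale. Acly, which cuts citrate to give cytosolic acetyl-CoA, had the highest level at 743 to 871 RPKM, and Slc25a1, which exports citrate from mitochondria, was at 210.2 to 266 RPKM. The pyruvate dehydrogenase genes Pdha1 (108 to 115 RPKM), Pdhb (48.1 to 67.6 RPKM) and Dlat (45.5 to 50.9 RPKM) and the acetate-using Acss2 (38.0 to 45.6 RPKM) followed. The choline transporter-like genes Slc44a1 (24.5 to 27.2 RPKM) and Slc44a2 (16.3 to 17.1 RPKM) stood below Slc5a7. Genes that put choline into phosphatidylcholine were at similar levels, Chka at 13.6 to 17.4 RPKM, Chkb at 15.6 to 18.6 RPKM, Pcyt1b at 32.9 to 37.0 RPKM and Cept1 at 16.2 to 19.6 RPKM, as was Pnpla6, which frees choline from phospholipid, at 28.7 to 36.6 RPKM. Slc44a4 and Slc22a2 were listed at 0 in all 4 libraries. Gdpd5, a phosphodiesterase that acts on glycerophosphocholine, had the smallest p of this group and is named after its value was seen, with a difference of 0.48 on the log2 scale (limma, adjusted p = 0.298).

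The list of acetylcholinesterase partners and processing also holds genes that act on receptors, among them Agrn and Ric3. All 9 of its genes had a mean of at least 1 RPKM, with a median difference of 0.04 on the log2 scale. Prima1, which anchors the enzyme in neuronal membranes, was listed at 26.9 and 35.0 RPKM in wild-type and 19.0 and 25.0 RPKM in G85R. Both G85R libraries lay below, and the difference of -0.49 on the log2 scale with a standard error of 0.18 did not pass the test (limma, adjusted p = 0.386). Colq, the collagen tail that anchors the enzyme at the muscle endplate, was low at 2.05 to 2.74 RPKM. Pdia3 (117 to 142 RPKM) and P4hb (79.7 to 88.3 RPKM), which fold proteins of the secretory path, Agrn (33.1 to 36.1 RPKM), which clusters receptors at the endplate, and Ric3 (28.9 to 35.2 RPKM), a chaperone of nicotinic receptors, also had means above 10 RPKM.

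Receptor genes were few. Of 16 nicotinic subunits 4 had a mean of at least 1 RPKM, and Chrnb2 alone reached 10, at 16.6 and 17.0 RPKM in wild-type and 19.7 and 19.9 RPKM in G85R (difference 0.24 on the log2 scale, limma adjusted p = 0.482). Chrna4, which pairs with Chrnb2 in neurons, was at 7.22 to 9.02 RPKM and Chrna7 at 4.48 to 7.77 RPKM, while the muscle subunits Chrnd and Chrng were listed at 0 in all 4 libraries. Of 5 muscarinic receptors Chrm2, the receptor of motor neuron C-bouton synapses, was the sole gene tested, at 22.2 and 29.9 RPKM in wild-type and 19.4 and 24.0 RPKM in G85R (-0.26, limma adjusted p = 0.683), and Chrm5 was listed at 0 throughout. Of 6 Ly6 genes, whose products bind nicotinic receptors, 5 were tested, led by Lynx1 at 187 and 192 RPKM in wild-type and 208 and 207 RPKM in G85R (0.13, limma adjusted p = 0.689) and Ly6e at 73.0 to 85.3 RPKM. Lypd6 was listed at 28.7 and 26.7 RPKM in wild-type and 16.4 and 22.1 RPKM in G85R. Its difference of -0.53 on the log2 scale with a standard error of 0.16 was the smallest in p of the 38 genes and did not pass the test (limma, adjusted p = 0.274).

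**Figure D5:**
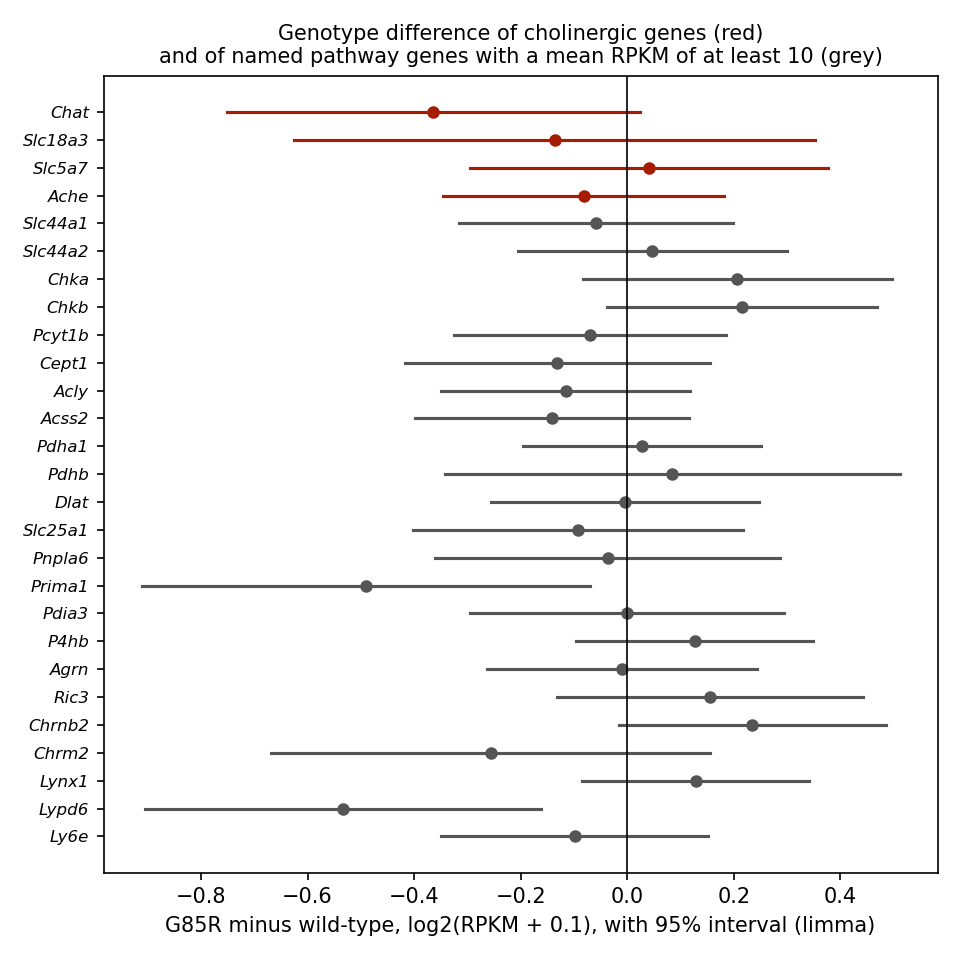
Difference of G85R from wild-type on the log2(RPKM + 0.1) scale with its 95% interval from limma, for the 4 cholinergic genes tested (red) and 23 pathway genes with a mean of at least 10 RPKM (grey). Of the 27 intervals 25 hold 0, and those of Prima1 and Lypd6 lie below 0 but did not pass the adjusted test. Of all genes tested, 11.0% had an unadjusted p under 0.05 (limma).

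Among 5779 genes with a mean of at least 10 RPKM, the genes whose pattern over the 4 libraries lay nearest to each member were named, by the root mean square distance of centred log2 values. Nearest to Chat were Ccdc88c (0.0288), Abcb9 (0.0296) and Tmem63c (0.0297). Nearest to Slc18a3 were Cck (0.0237), D10Bwg1364e (0.0238) and AK196542 (0.0303). Nearest to Slc5a7 were Dgat2 (0.0269), Trappc4 (0.0272) and Tmem42 (0.0309), and nearest to Ache were Ogfod2 (0.00999), Trmt1 (0.0107) and Edc4 (0.0127). Between members the distance was 0.138 for the nested genes Chat and Slc18a3, 0.130 for Slc5a7 and Ache, and 0.222 for Chat and Slc5a7. The genes named as nearest were picked as the closest of 5779, so larger distances between members do not show that the members are unlike. Where the distances between members stand among those to all 5779 genes was not tested. With 4 libraries these distances are a description.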

How the data were processed

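Poly(A) RNA of captured motor neurons was sequenced in 4 libraries. The authors mapped reads with Bowtie 0.12.3 to mm9 and splice junctions and quantified each UCSC gene cluster with Cufflinks, and the deposited values are RPKM, with and without 1 read added to each gene. The difference is the RPKM of 1 read, 0.0195 to 0.0226 at the median gene, which limits the precision of low values. Dividing by it gave 21560318 to 25186594 estimated reads per library, not exact counts since Cufflinks divides reads between isoforms. Whether the reads carried strand is not given in the sources used here, so Chat and the antisense Gm2990 cannot be told apart.

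Genotypes (2 libraries each, 1 animal per library) were compared with limma 3.58.1 (R 4.3.3; lmFit, eBayes with trend) on log2(RPKM + 0.1), for the 11530 genes whose mean reached 1 RPKM, with Benjamini-Hochberg adjustment and calls under 0.05. Fold changes on this scale understate low genes. The fit was tested on simulated data. Python 3.11.15 was used for the rest (scipy 1.17.1 for exact permutation tests, pandas 2.3.3, numpy 2.4.6, matplotlib 3.10.9). Named genes were the 5 members, pathway genes averaging at least 10 RPKM or called, the 3 highest of each marker list with any at 0, and the 3 nearest genes of each tested member. Members and lists were chosen with earlier results of these data known. The labels do not pair replicates. Alternatives were pseudocounts of 1 and 0.01, median-ratio and quantile scaling, a replicate block, other minimum RPKM, other eBayes settings, voom on the estimated reads, a log-linear test with Poisson errors (chosen here, on the rounded RPKM with 1 read added), and leaving out each library. Gde1, Hba-a1 and Hbb-b2 were not matched by symbol. Some genes that the naming rule takes are not reported here and enter only counts, medians and sums of their lists. Raw reads, splicing and qRT-PCR were not analysed here.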

Additional observations from a re-analysis of the deposited data

How the results depend on the processing

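Of 132 alternative values, 117 were rated the same. For tested members this meant the same direction and side of the threshold, and for Bche a shift under the spread between replicates. Ratios to Chat had to keep their direction, and counts of genes called had to be equal or within 1.5-fold. The genes called numbered 74, and 39 after quantile normalization, 17 at a minimum mean of 5 RPKM, 112 with no minimum, 49 with eBayes without trend and 527 with a replicate block. Leaving out each library gave 78 to 188 calls, the most without G85R replicate 2. Limma then assumes that the lone library of a genotype varies like the others. Under the replicate block Chat was called (-0.36, adjusted p = 0.0358), as were 2 pathway genes, Prima1 and Lypd6, and the block changed no other call among the members. Deviations of same-numbered libraries correlated at 0.22 over 11530 genes, with 2 pairs and no pairing in the labels. The Slc5a7 difference was -0.0086 after quantile normalization. Leaving out each library in turn gave differences of -0.57 to -0.16 for Chat, -0.38 to 0.11 for Slc18a3, -0.16 to 0.24 for Slc5a7, -0.19 to 0.027 for Ache and -0.36 to 0.07 for Bche. Slc18a3 turned positive without wild-type replicate 2 (0.11) or G85R replicate 1 (0.11), Slc5a7 negative without G85R replicate 2 (-0.16), and Ache positive without wild-type replicate 2 (0.027). The Bche to Chat ratio, 0.22 on the log2 scale, turned to -0.15 without wild-type replicate 2 and -0.16 without G85R replicate 1, within a range of -0.16 to 0.60. In the other alternatives Chat stayed between -0.39 and -0.34. The cause of these shifts was not tested. The 2 libraries a genotype limit the precision to the intervals given.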
